A study of Caenorhabditis elegans with 24 samples.

Results

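Whole adult Caenorhabditis elegans of the mutant strain CF1041, genotype daf-2(e1370), at day 7 of adulthood were compared with the wild-type strain N2 at day 4. The 6 libraries, 3 a side, were picked by strain and age in the labels out of 24 in the series, which hold both strains at days 1, 4, 7 and 11. The comparison asks whether the mutant at day 7 resembles a younger wild type. Worms of all groups were raised alike: they were synchronised by bleaching, fed OP50 bacteria and kept from the L4 larval stage on 50 µM FUDR, a drug that keeps progeny from hatching. RNA came from whole bodies, and libraries were stranded and depleted of ribosomal RNA. No label tells if a group's 3 libraries derive from different cultures; the p-values therefore reflect variation among these libraries, part or all of which may be technical. The groups differ in both strain and age, which cannot be told apart within the comparison, so N2 day 7 and daf-2 day 4 are set beside it.

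DAF-2 is the worm's receptor for insulin-like peptides. When it is active, a kinase cascade through AGE-1 and the AKT kinases keeps the FOXO transcription factor DAF-16 out of the nucleus, and when it is impaired DAF-16 enters the nucleus, where genes for stress resistance, metal binding and innate immunity rise and another set falls. The e1370 allele changes an amino acid in the receptor and lengthens life. In wild-type adults, age brings large shifts in yolk, cuticle collagen, immune and metabolic transcripts.

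The 6 libraries held between 27224177 and 32240625 expected counts, with 18652 to 20652 genes above 0, and ribosomal RNA took 4.36% to 11.8% of a library. Levels are given as CPM, a library's counts scaled to a common total and corrected for composition. The libraries numbered 3 in both groups stood apart from those numbered 1 and 2, with deviations from the group means that correlated at -0.31 to -0.46 with the other numbers. Libraries of the same number correlated at 0.21 to 0.56, but those numbered 1 and 2 also correlated across numbers (0.28 and 0.17), so that number 3 alone stood apart. The 3 deviations of a group sum to 0, so these correlations depend on one another and are not separate results. Counts of calls are also given from a fit with the replicate number as a block. Defining markers of the germline, oocytes, intestine, muscle and neurons were present in both groups. Of the hypodermis markers, col-19 and lin-26 were present, while rol-6 and dpy-7 averaged below 1 CPM in both groups. The hypodermis markers summed to 251 to 271 CPM in daf-2 day 7 and 419 to 627 CPM in N2 day 4. That gap came mainly from the collagen gene col-19, which averaged 190 against 461 CPM. The level of lin-26 averaged 68.6 against 78.3 CPM and was not called different (edgeR adjusted p = 0.692). The embryo markers summed to 5.67 to 11.3 CPM in daf-2 day 7 and 8 to 12.4 CPM in N2 day 4. The summed level of 4 sperm markers stayed below 1 CPM (0.152 to 0.694 in N2 day 4 and 0.433 to 0.883 in daf-2 day 7). In whole worms, fewer cells of a type and less RNA per cell cannot be told apart.

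The mutant at day 7 differed broadly from the wild type at day 4. Of 16698 genes tested, 1294 (7.75%) were higher and 712 (4.26%) lower in the mutant, together 2006, by edgeR's quasi-likelihood test at an adjusted p under 0.05, and 1125 of them differed at least 2-fold. The median log2 difference of all genes tested was 0.13. With the replicate block the counts rose to 2897 higher (17.3%) and 2490 lower (14.9%). Leaving out 1 library gave 667 to 1183 higher and 316 to 518 lower; the lowest counts came without daf-2 day 7 replicate 2, and those without N2 day 4 replicate 1 (682 and 370) or replicate 2 (781 and 446) were also over 1.5 times lower than the full counts, as was the count of lower genes without daf-2 day 7 replicate 3 (462). Without all libraries numbered 3, the counts were 2202 and 2078. The share of calls that were higher was 64.5%, against 54.4% with RLE scaling (1120 higher, 939 lower).

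Fewer genes separated the mutant at day 7 from the wild type of its own age than from the younger wild type. Against N2 day 7, 184 genes were higher (1.10%) and 166 lower (0.994%), 350 in all. Against N2 day 1 the count was 6025 (36.1%), and against N2 day 11 it was 1094 (6.55%). The median absolute log2 difference was 0.59 against day 1, 0.41 against day 4, 0.23 against day 7 and 0.27 against day 11. All 4 comparisons share the daf-2 day 7 libraries. The count was lowest against N2 day 7 under each of the 15 other settings in which all 4 comparisons were fitted, for example 877 against 5387 for N2 day 4 with the replicate block. It fell to 181 without daf-2 day 7 replicate 2, 229 without replicate 1, 208 without N2 day 7 replicate 1 and 224 without N2 day 7 replicate 2.

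**Figure D1:**
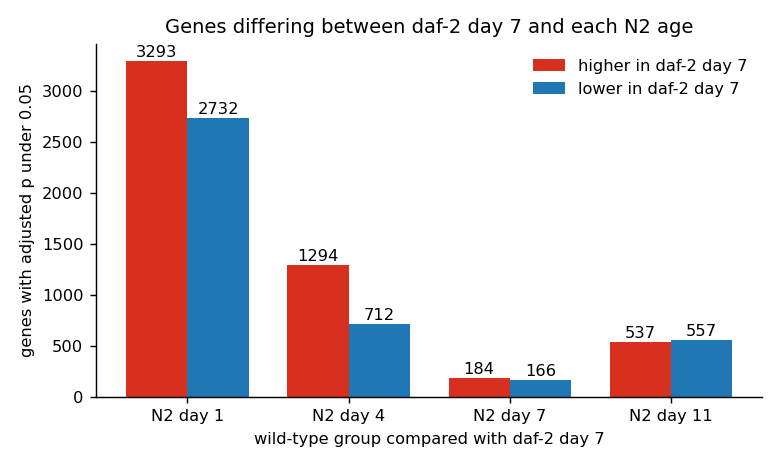
Bars give the number of genes with an adjusted p under 0.05 (y axis) that were higher (red) or lower (blue) in daf-2 day 7 than in each N2 age (x axis), 3 libraries a group. The bars against N2 day 7 (184 and 166) are the shortest and those against N2 day 1 the tallest.

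Each library was also placed on an axis running from the mean of N2 day 1, set at 0, to the mean of N2 day 11, set at 1, by weighting every gene with its change between those groups. The N2 day 4 libraries lay at 0.362, 0.42 and 0.456, and the daf-2 day 7 libraries at 0.73, 0.809 and 0.863. The groups did not overlap, and the mutant lay further towards old N2 (0.801 ± 0.067 against 0.413 ± 0.048, SD, n = 3 each). The N2 day 7 libraries lay at 0.649, 0.767 and 0.75 and overlapped those of the mutant at the same age. The daf-2 day 4 libraries lay between 0.439 and 0.655, so that 1 of the 3 fell within the range of N2 day 4. At day 1, the daf-2 libraries lay at 0.083, 0.127 and 0.22, and those of N2 at -0.059, -0.029 and 0.088. At day 11 the means were 0.976 for daf-2 and 1 for N2. A daf-2 position may therefore hold a strain difference as well as age, and the part of each was not tested. All positions are given as a description with no test. On an axis from daf-2 day 1 to daf-2 day 11, which includes no N2 library, the means were 0.574 for daf-2 day 7, 0.183 for N2 day 4 and 0.451 for N2 day 7, in the same order.

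**Figure D2:**
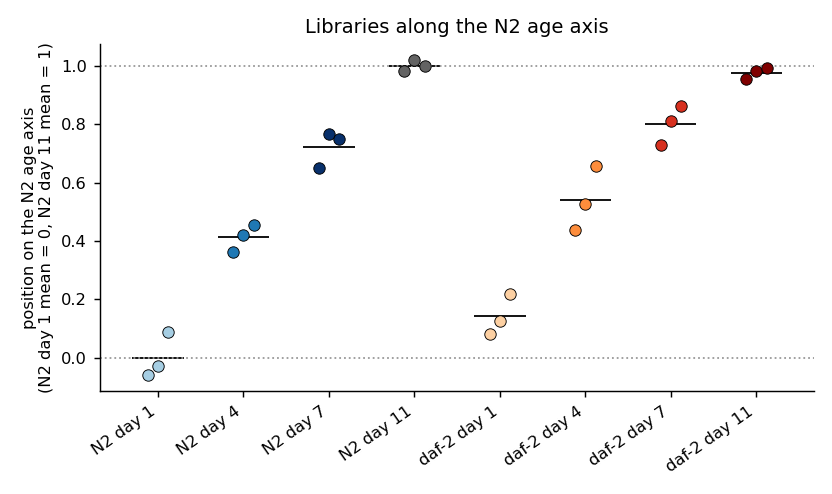
Each point is 1 library, placed by its position on the N2 age axis (y axis, N2 day 1 mean at 0, N2 day 11 mean at 1) and grouped by strain and age (x axis); lines are group means. The 3 daf-2 day 7 libraries sit between 0.73 and 0.863, above those of N2 day 4 and overlapping N2 day 7.

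Genes that change with age in N2 made up most of the difference. Those were taken from N2 day 11 against N2 day 1, groups that share no library with the comparison: 3752 genes rose (22.5%) and 3206 fell (19.2%). Of the genes that rose with N2 age, 907 (24.2%) were higher in daf-2 day 7 than in N2 day 4 and 12 (0.32%) were lower, and they were 70.1% of all genes higher in the mutant. Of the genes that fell with N2 age, 632 (19.7%) were lower and 32 (0.998%) higher, and they were 88.8% of all genes lower in the mutant. The median log2 difference from N2 day 4 was 0.67 for the rising genes and -0.40 for the falling genes; from N2 day 7 it was 0.18 and -0.09. With the replicate block, 2113 rising genes were higher and 2185 falling genes lower. The counts fell to 492 and 273 without daf-2 day 7 replicate 2, to 485 and 326 without N2 day 4 replicate 1, to 588 and 391 without N2 day 4 replicate 2, and the falling genes to 404 without daf-2 day 7 replicate 3. The 32 falling genes called higher were 17 without daf-2 day 7 replicate 2, 19 without N2 day 4 replicate 1 and 21 without N2 day 4 replicate 2.

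Genes that already set the strains apart at day 1 were a smaller share of the calls and had larger median differences. Against N2 at day 1, also without shared libraries, 191 genes were higher in daf-2 (1.14%) and 102 lower (0.611%). Of the 191, 142 (74.3%) were higher in daf-2 day 7 than in N2 day 4 and 0 were lower, with a median log2 difference of 1.75. Of the 102, 58 (56.9%) were lower and 1 was higher, with a median of -1.31. They were 11% of all higher and 8.15% of all lower genes. Of the 293 day 1 strain calls, 262 differed at least 2-fold, against 4248 of the 6958 N2 age calls. The sets thus differ in size and in how large a change their genes were picked for. Their shares and medians are therefore not like for like, and their overlap was not separated. With the replicate block 304 strain rises were higher and 137 strain falls lower. Across the 16698 genes, which are not independent replicates, the difference correlated with the N2 age change at r = 0.54 (Spearman's rho 0.66) and with the day 1 strain difference at r = 0.50 (rho 0.34).

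**Figure D3:**
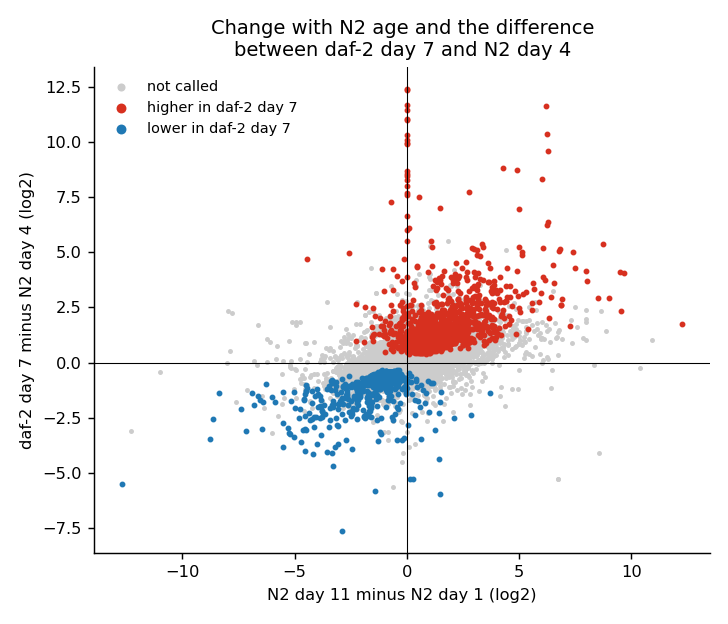
Each point is 1 gene: its log2 change from N2 day 1 to N2 day 11 (x axis) and its log2 difference between daf-2 day 7 and N2 day 4 (y axis), red where higher and blue where lower at an adjusted p under 0.05. Most red points lie to the right of 0 and most blue points to the left; the column of red points at 0 on the x axis holds genes with no counts in N2.

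Transcripts of daf-2 itself were at 286, 375 and 167 CPM in the mutant and 196, 225 and 183 CPM in N2 day 4, and the groups overlapped (log2 fold change 0.46 ± 0.27, SE, adjusted p = 0.274). It passed without all libraries numbered 3 (0.65, adjusted p = 0.0451). A missense allele need not change the transcript level, so this does not check the label. For daf-16, the values were 38.2, 75.5 and 25.4 CPM against 25.3, 18.9 and 27.7 CPM; 1 mutant library lay within the N2 range (0.95 ± 0.36, adjusted p = 0.0931). That difference passed without daf-2 day 7 replicate 3, the lowest mutant library.

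Over all genes tested, 7.75% were higher and 4.26% lower than in N2 day 4, and 1.10% and 0.994% than in N2 day 7. The counts of each list below stand beside these shares. The DAF-16 class I genes, reported as raised in daf-2 mutants in earlier work, moved one way where called. Of 23 tested, 15 rose and 0 fell, with a median log2 difference of 1.35 against 0.13 over all genes. Set against N2 day 7, 6 were higher. Leaving out 1 library gave 13 to 15, and the block 17. The list holds genes chosen for their response to daf-2, so its direction is not independent evidence.

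Among them, the metallothionein gene mtl-1, whose product binds heavy metals, was at 255, 267 and 419 CPM in the mutant and 13.5, 10.5 and 5.1 CPM in N2 day 4. The groups were far apart (5.02 ± 0.59, a 32.4-fold difference, adjusted p = 9.86e-06), and N2 day 7 averaged 29.9 CPM and daf-2 day 4 90.5 CPM. The mitochondrial superoxide dismutase gene sod-3, a standard reporter of DAF-16 activity, was at 11, 13.5 and 9.04 CPM against 3.41, 1.51 and 3.33 CPM (2.02 ± 0.31, adjusted p = 2.03e-04). N2 day 7 stood at 3.51 CPM, near its day 4 level, and daf-2 day 4 at 12.9 CPM. The gene dod-3 was at 124, 92.8 and 83.4 CPM against 5.8, 7.21 and 2.19 CPM (4.30 ± 0.54, adjusted p = 2.3e-05), with 40.7 CPM in N2 day 7. The lysozyme gene lys-7, an antibacterial effector, averaged 3830 CPM against 491 CPM (2.96 ± 0.56, adjusted p = 0.00119), with 2210 CPM in N2 day 7. The catalase genes ctl-1 and ctl-2 rose by 1.32 ± 0.22 and 1.29 ± 0.21 on the log2 scale (adjusted p = 4.82e-04 and 3.5e-04); they are near-identical neighbours, so their separate counts are uncertain.

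The gene pair icmt-1 and unc-38 on chromosome I separated the strains at both ages. The gene unc-38, which encodes an acetylcholine receptor subunit (I:4897620-4900974), was at 58.9, 55.4 and 27.9 CPM in the mutant and at 2.35, 2.24 and 2.43 CPM in N2 day 4 (4.34 ± 0.42, adjusted p = 1.08e-06). Its neighbour icmt-1 (I:4901918-4903264) was at 44, 66.1 and 17.2 CPM against 0, 0.32 and 0.243 CPM (7.74 ± 0.78, adjusted p = 1.53e-06). In N2 day 7 the 2 genes averaged 2.47 and 1.01 CPM, and in daf-2 day 4 they averaged 35.5 and 14.4 CPM. The transcript of unc-38 overlaps that of F21F3.4, and strand use in the authors' counting is not given in the sources used here.

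DAF-16 class II genes, reported as lowered in daf-2 mutants, gave 4 falls and 0 rises among 17 tested, with a median of -0.39. The 4 were dod-22, dod-23, dod-17 and dod-20; leaving out 1 library gave 3 or 4, and the block 6 falls and 1 rise. The gene dod-23 was at 47.3, 26.9 and 33.5 CPM in the mutant and at 264, 225 and 283 CPM in N2 day 4 (-2.84 ± 0.32, adjusted p = 7.64e-06), and at 271 CPM in N2 day 7. By contrast, dod-17 stood at 3.61 CPM in the mutant, 20.2 CPM in N2 day 4 (-2.48 ± 0.47, adjusted p = 0.00114) and 6.62 CPM in N2 day 7. Compared with N2 day 7, dod-23 was lower (-2.91, adjusted p = 1.06e-05) and dod-17 was not called (-0.87, adjusted p = 0.566).

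**Figure D4:**
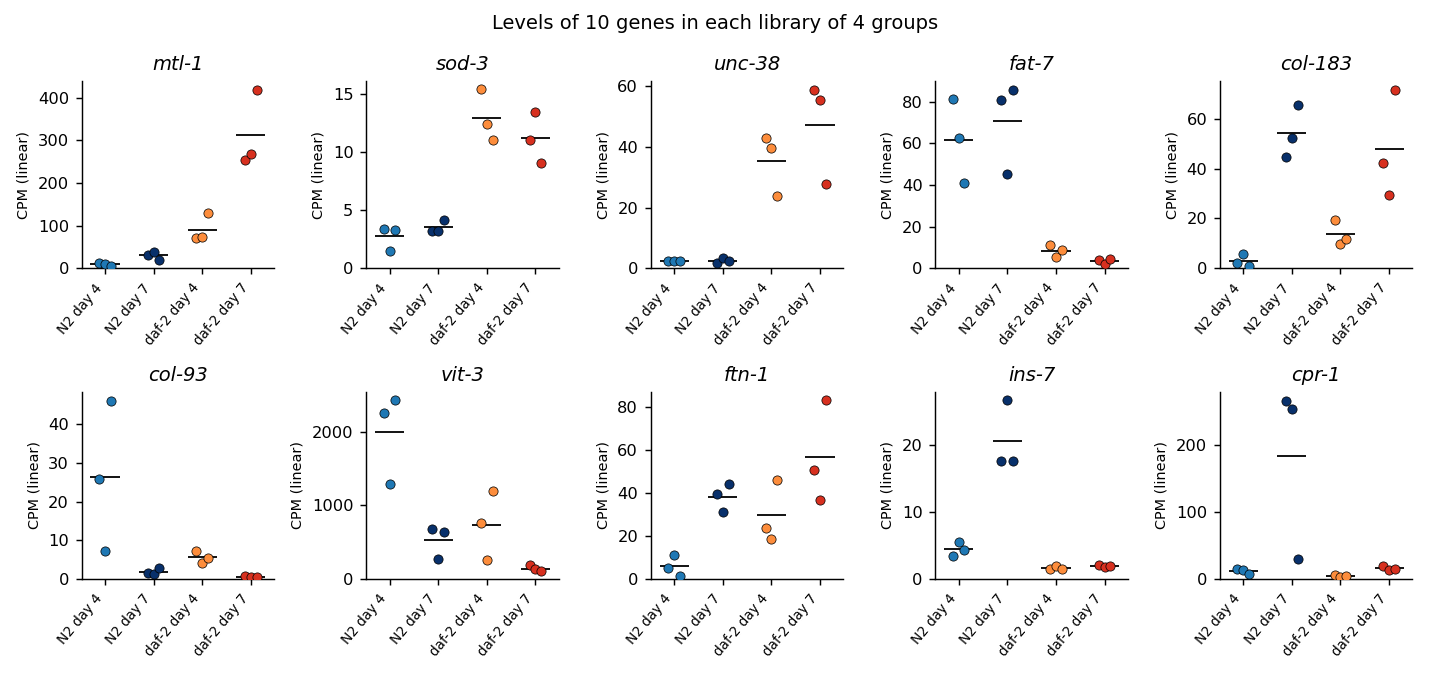
Each panel gives 1 gene's level in CPM on a linear scale (y axis) in the 3 libraries of N2 day 4, N2 day 7, daf-2 day 4 and daf-2 day 7 (x axis), with lines at group means. The levels of sod-3, unc-38 and fat-7 separate the strains at both ages, col-183, col-93 and ftn-1 in N2 day 7 lie near daf-2 day 7, and ins-7 is highest in N2 day 7 among these 4 groups.

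Insulin-like peptides, the ligands of DAF-2, gave 5 rises and 0 falls among 27 tested; the count rose to 8 without daf-2 day 7 replicate 3, and the block gave 12 rises and 2 falls. The gene ins-17 was at 16.8, 15.1 and 12.6 CPM against 8.38, 7.37 and 6.59 CPM (1.00 ± 0.18, adjusted p = 9.57e-04). Expressed at low levels, ins-22 averaged 9.93 CPM against 0.736 CPM (3.75 ± 0.32, adjusted p = 1.83e-07), ins-23 3.12 against 0.213 CPM (3.87 ± 0.44, adjusted p = 7.17e-06) and ins-35 5.82 against 0.979 CPM (2.57 ± 0.37, adjusted p = 9.8e-05). These 3 were also higher than in N2 day 7, by 2.44, 2.33 and 2.23.

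The insulin-like peptide ins-7, an agonist of DAF-2 whose gene DAF-16 lowers, was at 2.06, 1.84 and 1.98 CPM in the mutant and 3.41, 5.51 and 4.37 CPM in N2 day 4. The groups did not overlap, but the difference did not pass (-1.18 ± 0.47, adjusted p = 0.106). It passed with the replicate block (adjusted p = 0.0454), with only the 2 groups compared and without all libraries numbered 3, with a lowest adjusted p of 0.0276. In N2 day 7 it averaged 20.7 ± 5.23 CPM (SD, n = 3), and the mutant was lower than that group by 3.40 ± 0.49 on the log2 scale (adjusted p = 2.47e-04). Among 18 genes of the insulin signalling pathway, 2 rose and 0 fell (1 without any 1 of the 6 libraries but daf-2 day 7 replicate 3). The kinase gene akt-2 was at 43.5, 52.8 and 39.2 CPM against 18.9, 21.7 and 22 CPM (1.11 ± 0.18, adjusted p = 2.93e-04); ist-1 rose by 0.70 ± 0.23 (adjusted p = 0.0475).

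The largest rises included genes with no reads in N2. The F-box gene fbxb-7 (V:17377406-17379233) averaged 23.5 ± 9.93 CPM (SD, n = 3) in the mutant with 0 counts in all N2 day 4 libraries, and lsy-27 (V:17348665-17350193) at 22.7, 21.6 and 23 CPM with 0 counts. Taking 3 counts, summed over the 3 N2 libraries, as the limit for a count of 0, they were at least 691-fold and 647-fold higher. Both lie in a stretch of chromosome V, 17339084 to 17381119 on WBcel235, in which 11 genes were tested, all 11 were called higher, and 10 had 0 counts in all 12 N2 libraries; the lsy-27 transcript overlaps that of skr-5. This stretch was picked out after its values were seen. The 10 genes with 0 counts in N2 passed the expression filter only through daf-2 libraries. A gene of the stretch silent in both strains would not have been tested, so the filter favoured calls in this direction.

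The gene clx-1 had 1774 counts against 1, a ratio of 1700 with a 95% counting interval of 305 to 67200, but its levels spread from 1 to 55.1 CPM between mutant libraries. The C-type lectin gene clec-15 was at 43.4, 84.8 and 14.2 CPM against 0.0379, 0.064 and 0.0694 CPM (9.58 ± 1.3, adjusted p = 5.79e-05). The cathepsin B gene cpr-2 was at 2.67, 52.3 and 4.84 CPM against 0.152, 1.51 and 0.312 CPM. Its difference rested on single libraries: 4.88 ± 1.42 with an adjusted p of 0.0279, which became 0.27 without daf-2 day 7 replicate 2, 0.122 without N2 day 4 replicate 1 and 0.0869 without N2 day 4 replicate 3. Under the other settings tried, the block included, it passed, with a lowest adjusted p of 6.95e-06.

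Large rises also included col-183 and lipl-1, which were not called against N2 day 7, and pqn-73, which was. The collagen gene col-183 was at 42.4, 29.4 and 71.6 CPM against 1.97, 5.7 and 0.937 CPM (4.05 ± 0.70, adjusted p = 5.79e-04), and averaged 54.1 CPM in N2 day 7 and 13.7 CPM in daf-2 day 4. The lysosomal lipase gene lipl-1 was at 77.7, 135 and 110 CPM against 6.56, 9.41 and 6.07 CPM (3.87 ± 0.66, adjusted p = 5.37e-04), with 51.5 CPM in N2 day 7. The gene pqn-73 was at 36, 27.6 and 15.7 CPM against 0.379, 0.865 and 0.833 CPM (5.23 ± 0.50, adjusted p = 7.09e-07), with 3.88 CPM in N2 day 7 and 17.1 CPM in daf-2 day 4. The adjusted p against N2 day 7 was 0.961 for col-183, 0.632 for lipl-1 and 5.31e-04 for pqn-73 (log2 difference 2.77).

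The largest falls held immune, collagen, yolk and fatty acid genes. The invertebrate-type lysozyme gene ilys-5 was at 1.52, 0.181 and 0.791 CPM in the mutant and at 193, 177 and 125 CPM in N2 day 4 (-7.62 ± 1.16, adjusted p = 1.75e-04). N2 day 7 averaged 203 CPM and daf-2 day 4 6.16 CPM. The stearoyl-CoA desaturase gene fat-7, which makes oleic acid, was at 4.15, 2.09 and 4.63 CPM against 81.1, 62.6 and 41.1 CPM (-4.08 ± 0.45, adjusted p = 5.2e-06), with 70.7 CPM in N2 day 7 and 8.4 CPM in daf-2 day 4. Both genes separated the strains, and both were lower than in N2 day 7 (-7.92 and -4.28).

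The fallen collagens col-93 and col-20 also averaged less in N2 day 7 than in N2 day 4. The cuticle collagen col-93 was at 0.709, 0.397 and 0.609 CPM against 25.9, 7.33 and 46.1 CPM (-5.51 ± 0.55, adjusted p = 1.42e-06) and at 1.86 CPM in N2 day 7, and col-20 at 11.6, 20.4 and 10.6 CPM against 163, 58.5 and 242 CPM (-3.45 ± 0.49, adjusted p = 9.6e-05) and 23.6 CPM. Of 155 collagens tested, 29 fell and 6 rose, while the median was 0.21; leaving out 1 library gave 20 to 29 falls, and the block 33. In the N2 day 7 comparison, 1 was higher and 1 lower. The adult cuticle collagen col-19 was at 190 CPM against 461 CPM (-1.28, adjusted p = 8.76e-04).

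Yolk protein genes fell in part. Of 6 vitellogenins, which the intestine makes for oocytes, 3 fell, and the count was 3 without each of the 6 libraries. The gene vit-3 was at 185, 131 and 106 CPM against 2250, 1290 and 2420 CPM (-3.82 ± 0.60, adjusted p = 2.37e-04), and vit-4 at 288, 209 and 156 CPM against 2170, 1620 and 2350 CPM (-3.23 ± 0.52, adjusted p = 2.83e-04). These near-identical copies share reads, so the split between them is uncertain. N2 day 7 averaged 530 and 541 CPM, and the difference from it was not called (adjusted p = 0.0906 and 0.258). For vit-2, the levels were 3510, 7560 and 1280 CPM against 3360, 1800 and 4150 CPM, the groups overlapped (0.41 ± 0.56, adjusted p = 0.654), and the sign turned without daf-2 day 7 replicate 2 (-0.37).

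**Figure D5:**
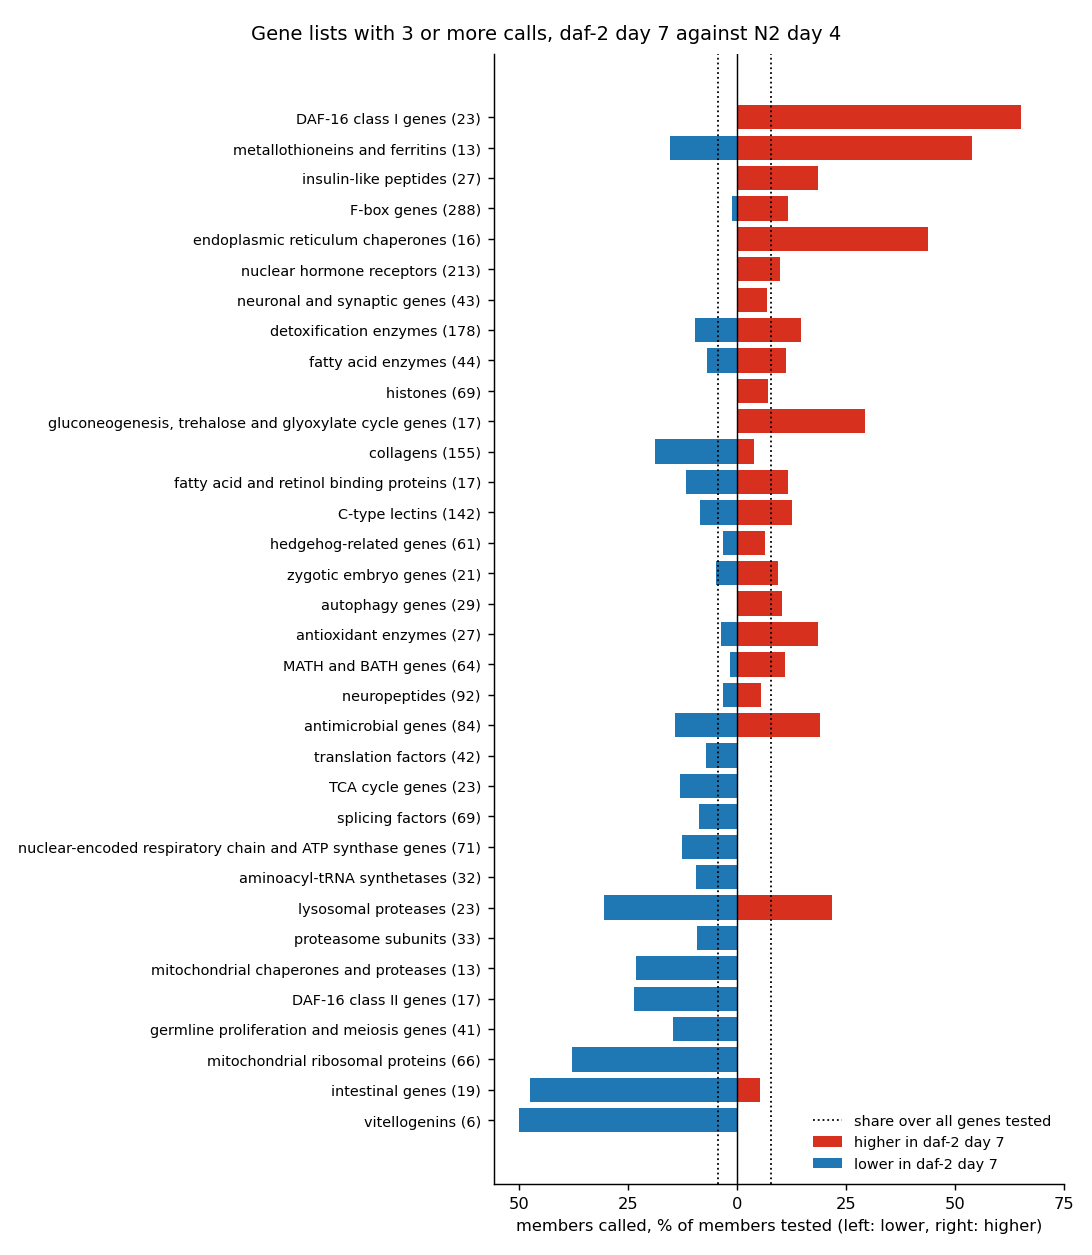
Bars give the share of tested members (x axis, %) called higher (red, right) or lower (blue, left) in daf-2 day 7 than in N2 day 4 for lists with 3 or more calls, sorted by median log2 difference, with the number tested in brackets; dotted lines mark the shares over all genes (7.75% and 4.26%). DAF-16 class I genes stand at the top, and vitellogenins and intestinal genes at the bottom.

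Of 19 intestinal genes tested, 9 fell, 1 rose and 9 were not called (median -0.75), with 6 to 9 falls when 1 library was left out and 3 rises without daf-2 day 7 replicate 3 or with the block. The rise was the gut esterase gene ges-1, at 127, 160 and 66.9 CPM against 37, 46.3 and 28.2 CPM (1.67 ± 0.28, adjusted p = 4.15e-04). The peptide transporter gene pept-1 was at 4.52, 5.27 and 4.35 CPM against 17.7, 13.7 and 17.3 CPM (-1.78 ± 0.27, adjusted p = 1.91e-04). The brush border proton pump subunit gene vha-6 was at 96.8, 86 and 50.3 CPM against 221, 213 and 209 CPM (-1.46 ± 0.22, adjusted p = 1.34e-04), and act-5, the actin of the intestinal microvilli, at 95.6 CPM against 263 CPM on average (-1.46 ± 0.22, adjusted p = 1.9e-04). The gene elt-2, the transcription factor of the intestine, did not pass (0.37, adjusted p = 0.215). The summed level of the intestinal markers elt-2, ges-1, act-5 and ifb-2 was 187 to 330 CPM in the mutant and 394 to 419 CPM in N2 day 4; the part of gut RNA content in these falls was not tested. Relative to N2 day 7, 5 intestinal genes were lower and 0 higher, and 2 were lower without daf-2 day 7 replicate 2 or 3 or N2 day 7 replicate 1 or 2.

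Lysosomal proteases moved both ways, with 7 falls and 5 rises among 23. The aspartic protease gene asp-17 was at 5.47, 3.07 and 1.07 CPM against 21.7, 19.4 and 13.7 CPM (-2.51 ± 0.48, adjusted p = 0.00133), and the cathepsin L gene cpl-1 averaged 500 CPM against 1130 CPM (-1.18 ± 0.24, adjusted p = 0.00257). In the other direction, asp-6 averaged 4530 CPM against 1980 CPM (1.2 ± 0.29, adjusted p = 0.00917) and asp-5 1310 against 575 CPM (1.19 ± 0.30, adjusted p = 0.012). The rises fell to 1 without N2 day 4 replicate 3 or daf-2 day 7 replicate 2 and were also fewer by over 1.5 times without N2 day 4 replicate 1; the falls ranged from 5 to 8. Relative to N2 day 7, 7 were lower and 0 higher, with over 1.5 times fewer falls without daf-2 day 7 replicates 2 (3) and 3 and N2 day 7 replicate 1.

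Immune genes did the same. Of 84 antimicrobial genes, 16 rose and 12 fell; the rises numbered 9 without N2 day 4 replicate 1 or 2 and were over 1.5 times fewer without replicate 3. The saposin-like gene spp-2 was at 259, 266 and 240 CPM against 23.4, 39.4 and 16.3 CPM (3.27 ± 0.58, adjusted p = 6.7e-04), with 216 CPM in N2 day 7. The related spp-17 was at 8.48, 2.82 and 12.7 CPM against 94.3, 72 and 130 CPM (-3.62 ± 0.55, adjusted p = 1.84e-04), with 36.8 CPM in N2 day 7. The infection response gene irg-8 was at 76.5, 68.1 and 41.5 CPM against 517, 525 and 469 CPM (-3.02 ± 0.30, adjusted p = 1.42e-06), with 160 CPM in N2 day 7. When N2 day 7 was the reference, 14 antimicrobial genes were lower and 1 higher; 23 were lower with the block. The 14 became 4 without daf-2 day 7 replicate 2 and were over 1.5 times fewer without its replicates 1 and 3 and without N2 day 7 replicate 1.

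C-type lectins, many of which respond to bacteria, gave 18 rises and 12 falls among 142, with 10 to 18 rises when 1 library was left out, the fewest without daf-2 day 7 replicate 2; the count also fell by over 1.5 times without N2 day 4 replicates 2 and 3. With the block, 26 rose and 24 fell. With N2 day 7 as the reference, 5 were higher and 14 lower; the falls were 7 without daf-2 day 7 replicate 2 and over 1.5 times fewer without its replicate 3 and N2 day 7 replicate 1, and the rises were 2 without N2 day 7 replicate 2 or 3. The symbol clec-209 stands for 2 gene identifiers with the same counts (46.8, 24.8 and 51.7 CPM against 193, 218 and 161 CPM), so the list counts it in both (-2.21 ± 0.37, adjusted p = 4.65e-04).

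Metal handling genes gave 7 rises and 2 falls among 13, with a median of 1.22; the rises numbered 6 or more without any 1 library, and the falls 1 without N2 day 4 replicate 1 or daf-2 day 7 replicates 1 or 2. The ferritin gene ftn-1, which stores iron, was at 50.8, 36.7 and 82.9 CPM against 5.01, 11.2 and 1.56 CPM (3.26 ± 0.54, adjusted p = 4.01e-04). It averaged 38.1 CPM in N2 day 7, from which the mutant was not called different (0.58, adjusted p = 0.827). The cadmium-responsive gene cdr-2 was at 57.5, 57 and 29.1 CPM against 21.3, 18 and 17.3 CPM (1.34 ± 0.29, adjusted p = 0.00338), with 21.1 CPM in N2 day 7 and 52.3 CPM in daf-2 day 4. Superoxide dismutases, catalases and other antioxidant enzymes gave 5 rises and 1 fall among 27, and 3 rises without daf-2 day 7 replicate 2 or any of the N2 day 4 libraries; the block gave 9 rises and 6 falls.

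Detoxification enzymes gave 26 rises and 17 falls among 178 (51 and 28 with the block), where 7.75% of all genes tested were higher and 4.26% lower. The rises numbered 17 without N2 day 4 replicate 2 or daf-2 day 7 replicate 2, and the falls 9 without the latter. The glucuronosyltransferase gene ugt-18 was at 40.2, 46.2 and 23.6 CPM against 5.2, 5.96 and 4.86 CPM (2.78 ± 0.38, adjusted p = 6.24e-05), with 24 CPM in N2 day 7. The glutathione S-transferase gene gst-38 was at 7.09, 6.28 and 4.14 CPM against 32.1, 40.7 and 53.3 CPM (-2.85 ± 0.51, adjusted p = 7.91e-04), with 9.26 CPM in N2 day 7. Nuclear hormone receptors gave 21 rises and 0 falls among 213 (65 and 4 with the block), and 7 rises without N2 day 4 replicate 1 or daf-2 day 7 replicate 2, with over 1.5 times fewer also without N2 day 4 replicate 2. Their median was 0.44; nhr-62, which acts in the response to dietary restriction, was at 21.3, 31.3 and 31 CPM against 6.94, 8.71 and 10.1 CPM (1.70 ± 0.28, adjusted p = 3.3e-04) and was also higher than in N2 day 7 (1.55, adjusted p = 0.00227).

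F-box genes, which encode substrate adaptors of ubiquitin ligases, gave 34 rises and 3 falls among 288, with a median of 0.58; the rises numbered 22 without N2 day 4 replicate 1 and 106 with the block. The falls numbered 1 without N2 day 4 replicate 3 or daf-2 day 7 replicate 2 and 15 with the block. Of the 34, 4 lie in the chromosome V stretch described above, had 0 counts in N2 and passed the filter only through daf-2 libraries. Besides fbxb-7, fbxa-182 was at 22.7, 29.6 and 20.2 CPM against 5.92, 7.72 and 7.04 CPM (1.81 ± 0.26, adjusted p = 1.15e-04). Over N2 day 7, 10 were higher and 0 lower. The related MATH and BATH genes gave 7 rises and 1 fall among 64, 14 and 7 with the block, and 4 rises without N2 day 4 replicate 1 or 2.

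Endoplasmic reticulum chaperones and folding enzymes moved one way, with 7 rises and 0 falls among 16 (median 0.56). The disulfide isomerase gene pdi-2 was at 471, 569 and 555 CPM against 241, 255 and 335 CPM (0.94 ± 0.19, adjusted p = 0.00267), and xbp-1, the transcription factor of the unfolded protein response, averaged 172 CPM against 109 CPM (0.67 ± 0.14, adjusted p = 0.0026). The count fell to 2 without N2 day 4 replicate 1 and was also over 1.5 times lower without daf-2 day 7 replicate 2; the block gave 10. Their median difference from N2 day 7 was 0.27. Small heat shock proteins gave 1 rise, hsp-12.3, among 14; hsp-16.2 was at 1.69, 3.9 and 10.8 CPM against 1.44, 3.23 and 4.23 CPM (adjusted p = 0.532), and its sign turned without daf-2 day 7 replicate 3. Of 22 cytosolic chaperones, only the co-chaperone gene bag-1 was called lower (-0.45, adjusted p = 0.0215), a call lost without 5 of the 6 libraries.

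Nuclear genes for mitochondrial ribosomes, the respiratory chain and the TCA cycle were lower where they were called. Of 66 mitochondrial ribosomal protein genes, 25 fell and 0 rose, with a median of -0.51 against 0.13 over all genes, and 61 fell with the replicate block. Leaving out any 1 library left 11 to 15 falls, the fewest without daf-2 day 7 replicate 2. The gene mrps-23 was at 14.9, 14.7 and 15.7 CPM against 27.3, 25.6 and 37.7 CPM (-1 ± 0.21, adjusted p = 0.00318), with 20.4 CPM in N2 day 7. Of 71 respiratory chain and ATP synthase genes, 9 fell and 0 rose, 2 to 5 when any 1 library was left out and 41 with the block. The complex I gene nduf-5 was at 42.7, 47.1 and 40.3 CPM against 66.3, 65.6 and 76.9 CPM (-0.68 ± 0.13, adjusted p = 0.00177). Of 23 TCA cycle genes, 3 fell (10 with the block, 1 without N2 day 4 replicate 1 or 2 or daf-2 day 7 replicate 2 or 3), and sucg-1, a succinyl-CoA ligase subunit, was at 81, 71.9 and 63.8 CPM against 128, 139 and 122 CPM (-0.85 ± 0.18, adjusted p = 0.00369). Of the 12 protein genes of the mitochondrial genome itself, none was called by edgeR or DESeq2, and 0 had an unadjusted p under 0.05 in edgeR. Against N2 day 7 the median log2 difference was -0.21 for mitochondrial ribosomal protein genes, -0.20 for the respiratory chain and -0.06 for the TCA cycle, against 0.04 over all genes.

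Of 17 genes of gluconeogenesis, trehalose and the glyoxylate cycle, 5 rose and 0 fell, with 1 rise without daf-2 day 7 replicate 2 and at most 4 without any other. Over all genes tested, 7.75% were higher. The block gave 6 rises and 4 falls, and each of the other scalings, DESeq2 and both other filters gave 1 fall. The trehalase gene tre-4 was at 15, 16 and 13.1 CPM against 7.43, 7.43 and 6.25 CPM (1.06 ± 0.18, adjusted p = 5.28e-04). Of 19 glycolysis genes, 2 rose without each of the 6 libraries: pyk-2, a pyruvate kinase (0.96 ± 0.22, adjusted p = 0.00659), and gpd-3, a glyceraldehyde phosphate dehydrogenase (0.63 ± 0.14, adjusted p = 0.00434). With the block, 5 glycolysis genes rose and 5 fell. Autophagy genes gave 3 rises and 0 falls among 29, 1 rise without N2 day 4 replicate 1 or 2 or daf-2 day 7 replicate 2, and 7 rises and 1 fall with the block. Of these, sqst-1, the p62 receptor, was at 225, 277 and 302 CPM against 99.8, 122 and 148 CPM (1.12 ± 0.23, adjusted p = 0.00232) and was called under every setting.

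Genes of translation, splicing and the proteasome were lower where they were called. The counts of falls were 3 of 42 translation factors, 3 of 32 aminoacyl-tRNA synthetases, 6 of 69 splicing factors and 3 of 33 proteasome subunits, with 0 rises in each. With the replicate block they were 15, 18, 23 and 19, and 4 translation factors rose. Without daf-2 day 7 replicate 2 they were at most 2 in each list. Over all genes tested, 4.26% were lower, and 14.9% with the block, so the small counts of the main fit say little about these lists. The initiation factor gene eif-2D was at 55.3, 47.2 and 45.5 CPM against 80.5, 83 and 77.8 CPM (-0.70 ± 0.14, adjusted p = 0.00248). The valyl-tRNA synthetase gene vars-1 was at 51.1, 48.5 and 58.1 CPM against 75.7, 78.4 and 82 CPM (-0.58 ± 0.12, adjusted p = 0.0026). Of 81 cytosolic ribosomal protein genes none was called by edgeR's test, 4 had an unadjusted p under 0.05, 2 were lower by DESeq2, and 23 were lower and 1 higher with the block.

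Germline genes were lower in part. Of 41 genes of germline proliferation and meiosis, 6 fell and 0 rose (median -0.44), 27 with the block and 1 to 4 when 1 library was left out. The synaptonemal complex gene syp-2 was at 56.6, 53.5 and 46.9 CPM against 93.7, 95.6 and 81.1 CPM (-0.78 ± 0.14, adjusted p = 6.68e-04), with 66.3 CPM in N2 day 7. The summed level of the germline markers glh-1, pgl-1, gld-1 and htp-3 was 565 to 955 CPM in the mutant and 908 to 1270 CPM in N2 day 4. None was called by edgeR, and gld-1 averaged more in the mutant (174 against 132 CPM) while the others averaged less. The part of germline RNA content in the falls was not tested. Of 28 oocyte, eggshell and maternal genes none was called by edgeR or DESeq2, 0 had an unadjusted p under 0.05 in edgeR, and 4 were lower with the block. Of 85 sperm genes, 2 rose, and of 43 neuronal genes, 3 rose, shares below the 7.75% of all genes tested. The neuronal median was 0.35, against 0.13 over all genes. With the block, 9 neuronal genes rose and 0 fell, a share of rises above the 17.3% of all genes. The block gave 7 rises and 1 fall among the sperm genes, a share of rises below it. The sperm count was 0 without N2 day 4 replicate 1, and the neuronal count 0 without daf-2 day 7 replicate 2 and over 1.5 times lower without N2 day 4 replicates 1 and 2.

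Fat genes split. Of 44 fatty acid enzyme genes, 5 rose and 3 fell (11 and 5 with the block, 3 rises without N2 day 4 replicate 1 or 2). Over all genes tested, 7.75% were higher and 4.26% lower, and 17.3% and 14.9% with the block. The share of this list that fell with the block was below the latter. Besides lipl-1, the rises were the lipase genes lipl-2, lipl-3 and lipl-4 and the elongase gene elo-6, which averaged 152 CPM against 76.5 CPM (0.99 ± 0.27, adjusted p = 0.0193). Besides fat-7, the falls were acs-1 (-0.95) and fat-1, an omega-3 desaturase gene (-0.63). Of 17 fatty acid and retinol binding protein genes, 2 rose and 2 fell, and 5 and 4 with the block. The rises numbered 1 without N2 day 4 replicate 1 or 3 or daf-2 day 7 replicate 2 or 3, and both falls were lost without N2 day 4 replicate 1 or 3 or daf-2 day 7 replicate 1 or 2 and with upper-quartile or library-size scaling. The gene far-7 averaged 11.4 CPM against 1.72 CPM (2.72 ± 0.36, adjusted p = 3.81e-05), with 4.23 CPM in N2 day 7.

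Signalling and structural lists held few calls. Over all genes tested, 7.75% were higher and 4.26% lower, and the shares of neuropeptide, hedgehog-related and histone genes that rose were below the former. Of 92 neuropeptide genes, 5 rose and 3 fell (9 and 3 with the block, 3 rises without replicate 1 or 2 of either group). The neuropeptide gene nlp-39 was at 15.9, 16.4 and 23.5 CPM against 2.62, 3.27 and 1.7 CPM (2.88 ± 0.39, adjusted p = 5.36e-05), with 14 CPM in N2 day 7. The counts were 4 rises and 2 falls of 61 hedgehog-related genes, 5 rises of 69 histone genes (whose copies share reads, and 0 without daf-2 day 7 replicate 2), 2 falls of 37 muscle genes and 3 falls of 13 mitochondrial chaperones and proteases. Each of the last 3 counts changed by over 1.5 times without several single libraries, and with the block they were 12, 5 and 9. The hedgehog-related counts were 8 and 6 with the block; without N2 day 4 replicate 2 there was 1 rise, with over 1.5 times fewer also without N2 day 4 replicate 1 or daf-2 day 7 replicate 2, and each of these last 2 left 1 fall. Of 21 zygotic genes, 2 rose and 1 fell (2 and 4 with the block); 1 rise was left without each single library except daf-2 day 7 replicate 3, and the fall was lost without replicate 1 or 2 of either group. Of 22 nucleolar genes 1 fell, 0 without N2 day 4 replicate 1 or 2 or daf-2 day 7 replicate 2 or 3 and 7 with the block. Of 35 cell cycle genes 1 fell, 0 without each of the 6 libraries, and the block gave 5 falls and 1 rise. Of 6 pud genes, none was called by edgeR or DESeq2, 2 had an unadjusted p under 0.05 in edgeR and 3 were lower with the block (median -1.64).

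Among genes of other types, the long non-coding RNA tts-1, reported as abundant in long-lived daf-2 mutants, was at 1640, 1720 and 1700 CPM in the mutant and at 747, 569 and 739 CPM in N2 day 4. The groups did not overlap (1.3 ± 0.42, adjusted p = 0.045), yet the call was lost without each of the 6 libraries, with adjusted p up to 0.158, and with RLE scaling, with no filter and without all libraries numbered 3, and held with the block (0.0136). The intergenic RNA linc-22 was at 44.4, 46.5 and 44.2 CPM against 17.6, 19.9 and 26.2 CPM (1.09 ± 0.18, adjusted p = 4.29e-04) and was called under every setting.

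Some genes of the N2 age lists differed between daf-2 day 7 and N2 day 7. Of the 3752 genes that rose with age in N2, 65 were lower in daf-2 day 7 than in N2 day 7 and 82 were higher. Of the 3206 that fell with age, 26 were higher and 57 lower. Over all genes tested, 1.10% were higher and 0.994% lower than in N2 day 7. The share of falling genes that were higher lay below that 1.10%. With the block the counts were 153 and 255, and 79 and 159. Each of the 65 and 26 fell by over 1.5 times without some libraries, the 65 to 35 and the 26 to 13 without daf-2 day 7 replicate 1, to 36 and 12 without its replicate 2, and to 38 and 17 without N2 day 7 replicate 1; the 65 fell to 40 without daf-2 day 7 replicate 3 and to 39 without N2 day 7 replicate 2, where the 26 fell to 9. Of the 65, 50 were not called against N2 day 4, 9 were lower and 6 higher. Of the 26, 9 were not called against N2 day 4, 0 were lower and 17 higher. These genes were looked for after the values were seen. Both comparisons share the daf-2 day 7 libraries by which the genes were picked. Their counts against N2 day 4 therefore lean in the picked direction and are not separate evidence.

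Among the 65 were ins-7, the neuropeptide-like gene nlp-34, ora-1 and cpr-1, and the first 3 stayed called against N2 day 7 without each library of those groups. In nlp-34 the mutant libraries were at 7.02, 11.8 and 6.27 CPM, N2 day 4 at 9.25, 9.25 and 4.68 CPM and N2 day 7 at 49.8, 54 and 34.4 CPM. The mutant overlapped N2 day 4 (0.11 ± 0.37, adjusted p = 0.86) and lay below N2 day 7 (-2.46 ± 0.38, adjusted p = 5e-04). For ora-1, levels were 2.03, 3.65 and 2.44 CPM in the mutant, 16, 12.4 and 3.02 CPM in N2 day 4 and 99, 29.3 and 36.8 CPM in N2 day 7 (-4.35 ± 0.70 against day 7, adjusted p = 7.76e-04). The cathepsin B gene cpr-1 was at 19.7, 13.9 and 15.3 CPM in the mutant, 14.2, 12.9 and 7.22 CPM in N2 day 4 and 266, 253 and 29.8 CPM in N2 day 7. Its difference from N2 day 7 (-3.49 ± 0.81, adjusted p = 0.0208) was lost without any 1 of the 6 libraries except N2 day 7 replicate 3, the low one (adjusted p up to 0.131).

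The change from day 4 to day 7 was not shown to differ between the strains. The strain-by-age term of edgeR's test called 0 of 16698 genes, with 297 at an unadjusted p under 0.05; it was run in edgeR only. Taken singly, N2 day 7 differed from N2 day 4 in 402 genes (2.41%), daf-2 day 4 from N2 day 4 in 323 (1.93%) and daf-2 day 7 from daf-2 day 4 in 56 (0.335%). The comparison of daf-2 day 4 with N2 day 4 shares libraries with each of the others, which share none with one another.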

How the data were processed

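RNA-seq of whole worms was deposited by the authors as 1 table a library of expected counts per gene, which per the submitters' processing notes came from STAR 2.7.0e and RSEM 1.3.1 with WBcel235 (ce11); annotation release, filters and strand use are not given in the sources used here. Of 46904 gene identifiers, 46817 had an annotation. Reads of near-identical genes are split by estimate. The values were rounded to whole counts and fitted in R 4.3.3 with edgeR 4.0.16: 24 libraries in 1 model with a mean per group, filterByExpr (16698 genes), TMM scaling, glmQLFit and glmQLFTest, Benjamini-Hochberg adjustment over all genes at 0.05. Log2 fold changes are daf-2 day 7 minus N2 day 4 with SE; DESeq2 1.42.0 was an alternative, and the fit was tested on simulated data.

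The main fit did not pair libraries. Replicate numbers were used only in the alternative fit with the block, and no label says that they pair the libraries. That fit was added since the deviations of same-numbered libraries correlated at 0.31 (number 1), 0.21 (number 2) and 0.56 (number 3), all above 0.1. Those numbered 1 and 2 also correlated across numbers, at 0.28 and 0.17. No 2 libraries of a group agreed within sampling noise. Alternatives were other scalings, filters, tests and gene sets, the replicate block, the 2 groups alone and libraries left out; the fit without all libraries numbered 3 was one of them. Named genes were the 12 largest rises and falls at a mean of at least 10 CPM without overlap, up to 3 members of each list, 6 genes of other biotypes and, always, tts-1, ins-7, hsp-16.2, vit-2, mtl-1, sod-3, daf-16 and daf-2; others named were chosen after their values were seen. The members and lists were chosen with earlier results of these data known. Sequences were not analysed here.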

Additional observations from a re-analysis of the deposited data

How the results depend on the processing

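The direction of the main counts, of the age positions and of most named genes was kept, but counts depended on the fit. With the replicate block, genes higher and lower numbered 2897 and 2490, calls against N2 day 7 877 and against N2 day 11 2674; N2 age rises were higher in 2113 and lower in 45, N2 age falls lower in 2185 and higher in 103, day 1 strain rises higher in 304 and lower in 2, and strain falls lower in 137 and higher in 4. Without all libraries numbered 3 the counts were 2202 and 2078 in all, 2234 against N2 day 11, 1600 and 41 for age rises, 1846 and 64 for age falls and 0 for strain falls called higher. DESeq2 gave 1251 genes lower, 535 against N2 day 7, 22 age rises lower, 1122 age falls lower, 1 strain rise lower and 3 strain falls higher. With no filter, 840 genes and 562 age rises were higher. The cause of these shifts was not tested.

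Leaving out 1 library gave 667 to 1183 genes higher and 316 to 518 lower, 181 to 341 calls against N2 day 7 (leaving out N2 day 7 libraries was chosen after seeing the data), 634 to 1063 against N2 day 11, 485 to 807 age rises higher, 273 to 451 age falls lower, 17 to 35 age falls higher, and 65 to 89 named genes called, against 111. On the daf-2 axis the positions were 0.574, 0.183 and 0.451 for daf-2 day 7, N2 day 4 and N2 day 7. Signs turned in 6 named genes that were not called. Leaving out 1 library, sip-1 ranged from -0.27 to 0.23, WBGene00010964 from -0.68 to 0.01, rla-0 from -0.08 to 0.38, cbd-1 from -0.35 to 0.06, hsp-16.2 from -0.09 to 1.31 and vit-2 from -0.37 to 0.83. For sip-1 (0.01) the value was -0.05 with RLE scaling and by DESeq2, -0.04 with no filter, -0.01 with the 2 groups alone and with protein-coding genes, and -0.06 without all libraries numbered 3. Of the other values of named genes under the alternatives, 1628 kept their direction and side of the threshold, 296 lost the call and 8 gained one. A planned search of promoters for motifs was not run. Depth of at least 27224177 counts limits genes of few counts, such as clx-1, and intervals and floors cover counting error only.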

Other observations

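Of 6 purine synthesis genes, picked out after their values were seen, 3 were higher in daf-2 day 7 than in N2 day 4, 1 was lower and 2 were not called. The gene atic-1, which encodes the enzyme of the last steps to IMP, was at 130, 182 and 94.5 CPM in daf-2 day 7 and 59.8, 50.1 and 62.9 CPM in N2 day 4 (log2 fold change 1.24 ± 0.22, SE, edgeR adjusted p = 7.31e-04). The groups did not overlap, and atic-1 was at 45.9 CPM in N2 day 7 and 131 CPM in daf-2 day 4. For pfas-1, the levels were 107, 138 and 58.1 CPM against 46.3, 41.5 and 42.9 CPM (1.21 ± 0.32, adjusted p = 0.0144). For paic-1, they were 96, 122 and 60.8 CPM against 51.2, 50.8 and 43.5 CPM (0.94 ± 0.24, adjusted p = 0.0138). These 3 genes were higher in every mutant library. The gene ppat-1, for the first enzyme of the pathway, was instead at 6.28, 6.79 and 7.37 CPM against 19.2, 14.7 and 20.7 CPM (-1.42 ± 0.24, adjusted p = 4.99e-04). Not called were adsl-1 (-0.21, adjusted p = 0.536) and F38B6.4 (0.70, adjusted p = 0.183). Among the genes that fall with age in N2 and were higher than in N2 day 7 was also sdz-24, at 24.2, 22.5 and 25.4 CPM in the mutant, 3.53, 2.34 and 1.7 CPM in N2 day 4 (3.25 ± 0.24, adjusted p = 4.7e-08) and 5.05, 3.4 and 4.19 CPM in N2 day 7.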
